A study of Homo sapiens with 9 samples.

Results

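The cyclin D, CDK4/6 and RB pathway was followed through 10 genes taken by symbol: the D cyclins CCND1, CCND2 and CCND3, the kinases CDK4 and CDK6, the inhibitors CDKN2A, CDKN2C and CDKN1B, the pocket protein gene RB1 and the transcription factor gene E2F1. All 10 were found among the 19706 usable gene symbols of the table. Of these, 9 passed the filter on low values, which kept 13076 genes for testing, and 1, CCND2, was listed at 0 in every library. Polyadenylated RNA was measured in 9 libraries, 3 for each of 3 established lines of human neuroblastoma. The MYCN oncogene is amplified in Kelly and BE(2)C and is not amplified in SH-SY5Y, and all 3 lines were grown in the same medium and left untreated. Nothing in the labels tells separate cultures from repeat libraries of 1 culture, so the p-values rest on a spread that may be technical. With a single line that lacks the amplification, MYCN status and other features of SH-SY5Y cannot be told apart.

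D cyclins accumulate when growth signals reach a resting or early G1 cell and switch on the kinases CDK4 and CDK6. The active kinases phosphorylate RB1, which then lets go of E2F factors, and E2F factors turn on the genes of DNA replication. The INK4 inhibitors, CDKN2A and CDKN2C among them, bind CDK4 and CDK6 and keep the D cyclins off, while the CIP/KIP inhibitor CDKN1B acts chiefly on the cyclin E and cyclin A kinases. In neuroblastoma the CCND1 and CDK4 loci are known sites of gain, and E2F1 and other genes of the entry into S phase are often described as high where MYCN is amplified.

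Levels are given as scaled TPM, a per-length measure relative to the total of the gene entries, after a trimmed-mean adjustment between libraries, and fold changes are differences of log2(scaled TPM + 1), which understate the change of low genes. MYCN itself stood at 5970 ± 77.6 scaled TPM in Kelly, 6050 ± 1088 in BE(2)C, against 27.3 ± 1.01 in SH-SY5Y (SD, n = 3 each), as labelled. All 12 sympathoadrenal markers reached 1 scaled TPM in Kelly and BE(2)C and 11 of 12 did in SH-SY5Y, where TH stayed below 1. Over 15 markers of leukocytes, epithelium, liver, red cells and fibroblasts the summed level was 12.1 to 16.4 in Kelly, 19.8 to 42.4 in BE(2)C, against 16.4 to 18.9 in SH-SY5Y, and CD3E, KRT5, ALB and HBB were at 0 in all 9 libraries; the part of these markers in the results was not tested. In bulk RNA of this kind, fewer cells of a type and less RNA per cell cannot be told apart. The synthetic spike-in transcripts set Kelly apart: the largest shift among 61 spike-ins was 1.38 on the log2 scale for Kelly against SH-SY5Y and 1.20 for Kelly against BE(2)C, but 0.175 for BE(2)C against SH-SY5Y. Some genes that every cell uses were listed low, in every line or in a single line. HSPA8 stood at 1.91 ± 1.28 scaled TPM in Kelly, 11.7 ± 4.02 in BE(2)C, against 3.98 ± 0.954 in SH-SY5Y. The tubulin gene TUBB stood at 29.6 ± 1.27 scaled TPM in Kelly, 24.5 ± 1.40 in BE(2)C, against 0.230 ± 0.211 in SH-SY5Y. A comparison of levels between genes, and a listed 0, is therefore uncertain. So is a difference between lines for a single gene, since TUBB was very low in SH-SY5Y alone.

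The study's title names let-7, a microRNA family that represses growth genes by pairing its seed, bases 2 to 8, with messages. D cyclins and CDK6 are among the targets described for let-7 in other cells, so the seed and its matches in the member genes are shown here. All 9 mature family members of RefSeq (GRCh38.p14) that were looked up share the seed GAGGUAG, in capitals below. The first is encoded at chr9:94175962-94175983 on the plus strand, the next at chr3:52268336-52268357 on the minus strand and the last at chrX:53556299-53556320 on the minus strand.

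hsa-let-7a-5p: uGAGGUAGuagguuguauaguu

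hsa-let-7g-5p: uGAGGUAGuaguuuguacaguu

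hsa-miR-98-5p: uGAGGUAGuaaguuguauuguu

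Each member's longest 3′ UTR in GENCODE release 29 was searched on the transcribed strand for the words CTACCTC, which pairs with the whole seed, and TACCTCA, which pairs with 6 bases of it and carries an A opposite the first base. The words share 6 letters and overlap where both occur. CTACCTC was found in 0 of the 10 members, and TACCTCA was added to the search after that was seen. TACCTCA was found in 4 members: 2 times in CCND1, 3 times in CCND2, 1 time in CDK6 and 1 time in RB1. The 7 windows follow with the match in capitals (GRCh38, 5′ to 3′ on the gene's strand). CCND1 site 1 is at chr11:69653485-69653513 and site 2 at chr11:69654144-69654172, plus strand. CCND2 site 1 is at chr12:4301981-4302009, site 2 at chr12:4302048-4302076 and site 3 at chr12:4304911-4304939, plus strand. The CDK6 site is at chr7:92614269-92614297, minus strand, and the RB1 site at chr13:48480746-48480774, plus strand.

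CCND1 site 1: ctgtttcacaaTACCTCAtgcttcactta

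CCND1 site 2: cggctcacgctTACCTCAaccatcctggc

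CCND2 site 1: ggagtattcttTACCTCAggtttactgga

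CCND2 site 2: tgttttcataaTACCTCAcaaccgtacag

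CCND2 site 3: cttatatcatgTACCTCAgatctctctct

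CDK6 site: tttagggagtgTACCTCAgatagatttta

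RB1 site: aacagatttcaTACCTCAgaatgtaaaag

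A match is common in long UTRs. At least 1 of the words was found in 15.7% of the longest 3′ UTRs of 19128 genes, in 26.7% of those about as long as the 3192 bases of CCND1 (0.8 to 1.25 times its length), in 42.5% of those about as long as the 5341 bases of CCND2, in 67.2% of those about as long as the 10219 bases of CDK6 and in 18.7% of those about as long as the 1819 bases of RB1. As many as 2 matches were held by 4.37% of the UTRs of CCND1's length, and as many as 3 by 2.42% of those of CCND2's length. The matches are a description of the sequence. The microRNAs were not measured in these polyadenylated libraries, and no effect of let-7 on any member was tested.

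**Figure D1:**
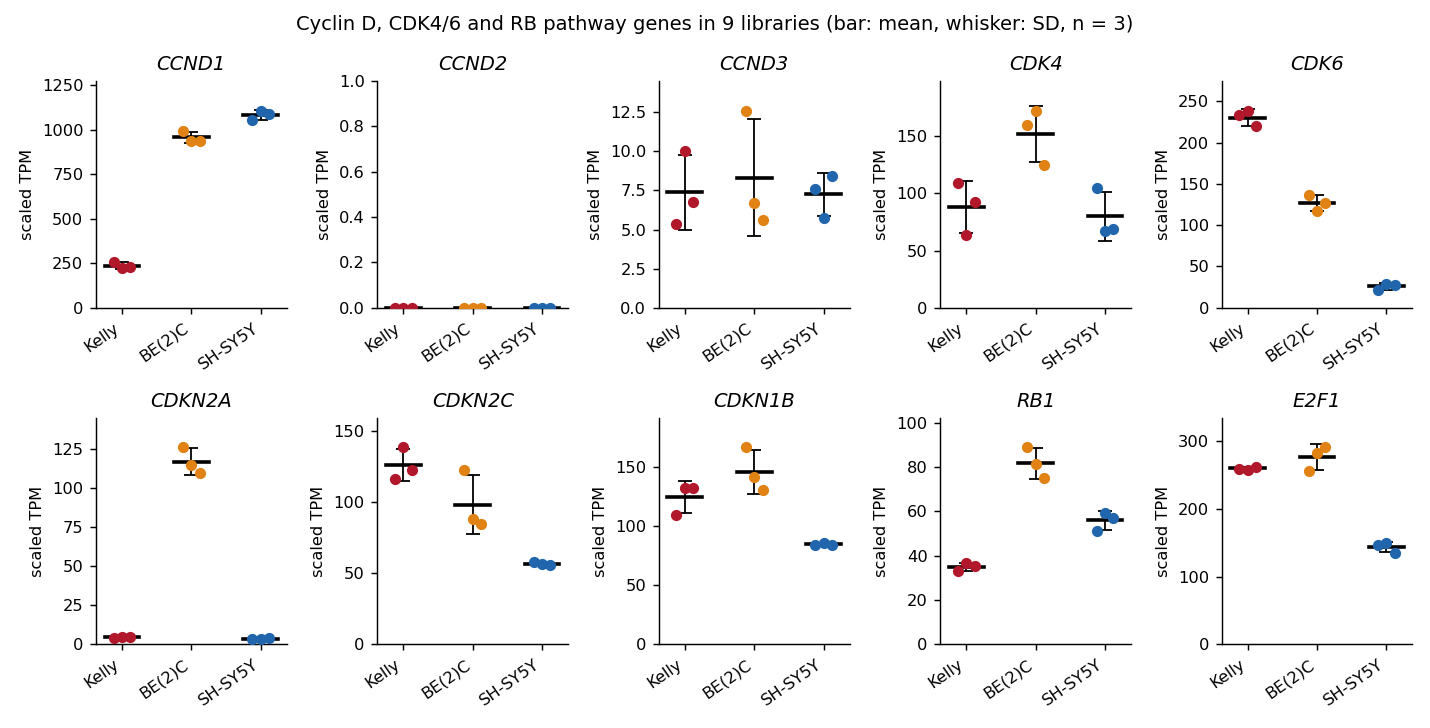
Scaled TPM of the 10 pathway genes in the 9 libraries, 1 panel per gene with its own linear axis from 0; points are libraries, bars the mean and whiskers the SD of 3 libraries, with Kelly at the left, then BE(2)C and SH-SY5Y. CCND1 averages 236 in Kelly, 956 in BE(2)C, against 1082 in SH-SY5Y, CDK6 runs the other way with 230.3, 127 and 26.0 in the same order of lines, and CDKN2A is high in BE(2)C alone, at 117.

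CCND1, which encodes cyclin D1, was the highest listed D cyclin in all 3 lines and was about 4 times lower in Kelly than in either other line. The gene lies at chr11:69641087-69654474 on the plus strand (GRCh38). It had 258, 221 and 230 scaled TPM in the Kelly libraries, 993, 938 and 939 in the BE(2)C libraries and 1052, 1107 and 1086 in the SH-SY5Y libraries. No library of one line reached into the range of another. The change was -2.19 ± 0.07 on the log2 scale for Kelly against SH-SY5Y (SE; limma, adjusted p = 2.23e-08), a ratio of 0.219, and -2.02 ± 0.07 for Kelly against BE(2)C (adjusted p = 5.95e-08), a ratio of 0.247. Both are larger than the largest spike-in shift of the same comparison. In the main fit BE(2)C was slightly below SH-SY5Y, by -0.18 ± 0.07 (limma, adjusted p = 0.0432). That call is a weak one: without a filter on low values the adjusted p was 0.0527, and 6 of the 9 libraries ended the call when left out. Those are Kelly replicate 3 (adjusted p = 0.0587), BE(2)C replicates 2 (0.107) and 3 (0.0861) and SH-SY5Y replicates 1 (0.0672), 2 (0.125) and 3 (0.101). The size of the gap between BE(2)C and SH-SY5Y moved with the scaling. As deposited, CCND1 had 126, 107 and 103 TPM in the BE(2)C libraries, against 178, 203 and 185 in the SH-SY5Y libraries. CCND1 stood above 95.9% of tested genes in Kelly, 99.2% in BE(2)C, against 99.4% in SH-SY5Y. Its exons overlap those of LTO1 on the other strand over 497 of 4830 bases, and no source used here says whether reads were counted by strand. LTO1, named ORAOV1 in the table, stood at 14.8 ± 3.29 scaled TPM in Kelly, 22.8 ± 3.91 in BE(2)C, against 16.0 ± 3.81 in SH-SY5Y (SD, n = 3), far below CCND1 in each line.

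CCND2, which encodes cyclin D2 at chr12:4273772-4305350 on the plus strand, was listed at 0 in all 9 libraries, so no difference between lines can be given for the gene with the most TACCTCA words among the members. Its exons overlap those of AC008012.1, a protein-coding gene on the same strand, over 989 of 7157 bases. No level was found for AC008012.1, and the part of this overlap in the listed 0 was not tested. CCND3, which encodes cyclin D3 at chr6:41934933-42050357 on the minus strand, was low in every line. It had 5.37, 10.0 and 6.75 scaled TPM in the Kelly libraries, 12.6, 6.72 and 5.61 in the BE(2)C libraries and 7.60, 5.74 and 8.41 in the SH-SY5Y libraries. The 3 lines overlapped throughout. Its log2 difference was -0.00 for Kelly against SH-SY5Y (95% interval -0.70 to 0.70; limma, adjusted p = 0.999), 0.12 for BE(2)C against SH-SY5Y (-0.58 to 0.81; adjusted p = 0.768) and -0.12 for Kelly against BE(2)C (-0.81 to 0.58; adjusted p = 0.778), so differences of up to about 0.8 are within its error. CCND1 made up 96.9 ± 1.17% of the summed TPM of the 3 D cyclins in Kelly, 99.1 ± 0.352% in BE(2)C, against 99.3 ± 0.134% in SH-SY5Y (SD, n = 3). This share takes the uncertain 0 of CCND2 as listed, so it sets CCND1 against CCND3 alone.

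The genes whose pattern over the 9 libraries was closest to that of each D cyclin were found by the root-mean-square difference of centred log2 values among the 13076 tested genes. For CCND1 these were GPR108 at 0.110, PLXNB3 at 0.119 and CRYL1 at 0.132 log2 units. All 3 are low genes with the same order of lines. The log2 values compared carry an added constant, which understates the change of low genes, so a close match is not a like fold change. CCND1 averaged 236 scaled TPM in Kelly, 956 in BE(2)C, against 1082 in SH-SY5Y. GPR108 and PLXNB3 were lower in Kelly by larger ratios than CCND1 was. GPR108 averaged 0.394 scaled TPM in Kelly, 4.67 in BE(2)C, against 5.69 in SH-SY5Y. PLXNB3, a plexin receptor gene, averaged 1.71 in Kelly, 10.8 in BE(2)C, against 13.3 in SH-SY5Y. CRYL1 was listed at 0 in the Kelly libraries and averaged 3.50 in BE(2)C, against 3.53 in SH-SY5Y. For CCND3 the closest were BORA at 0.140, HSPH1 at 0.168 and ZNF426 at 0.170, which like CCND3 itself hardly differed between the lines. CCND2, at 0 throughout, has no pattern to match.

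CDK6 carried the largest difference of the kinases and ran opposite to CCND1. The gene lies at chr7:92604921-92836594 on the minus strand. It had 233, 239 and 219 scaled TPM in the Kelly libraries, 137, 117 and 127 in the BE(2)C libraries and 21.1, 28.98 and 28.0 in the SH-SY5Y libraries. The lines did not overlap, with Kelly highest and SH-SY5Y lowest. CDK6 rose by 3.11 ± 0.12 on the log2 scale in Kelly against SH-SY5Y (limma, adjusted p = 6.81e-08), an 8.63-fold difference, and by 2.26 ± 0.12 in BE(2)C against SH-SY5Y (adjusted p = 3.94e-07), a 4.77-fold difference. Kelly also exceeded BE(2)C, by 0.85 ± 0.12 (adjusted p = 2.60e-04), a size within the spike-in shifts of that comparison. CDK6 stood above 95.8% of tested genes in Kelly, 90.1% in BE(2)C, against 57.1% in SH-SY5Y.

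CDK4, the other partner of the D cyclins, lies at chr12:57747727-57756013 on the minus strand and was highest in BE(2)C. It had 109, 64.1 and 92.1 scaled TPM in the Kelly libraries, 160, 173 and 125 in the BE(2)C libraries and 105, 66.8 and 68.5 in the SH-SY5Y libraries. Kelly and SH-SY5Y overlapped and BE(2)C stood above both, with means of 88.3 ± 22.6 in Kelly, 152 ± 24.6 in BE(2)C, against 80.0 ± 21.5 in SH-SY5Y (SD, n = 3). The difference was 0.94 ± 0.23 for BE(2)C against SH-SY5Y (limma, adjusted p = 0.00624), -0.80 ± 0.23 for Kelly against BE(2)C (adjusted p = 0.0159) and 0.14 ± 0.23 for Kelly against SH-SY5Y (95% interval -0.38 to 0.66; adjusted p = 0.638). With library totals only, the first of these was 0.48 (adjusted p = 0.0726; 0.35 and 0.130 on values as deposited) and the second -0.48 (adjusted p = 0.0824), and without Kelly replicate 2 (adjusted p = 0.0521) or BE(2)C replicate 2 (adjusted p = 0.0562) the second missed the threshold. On values as deposited the Kelly against SH-SY5Y difference turned to -0.53 (adjusted p = 0.0288). CDK4's exons overlap those of TSPAN31 on the other strand over 1369 of 3168 bases. TSPAN31 ran in a different order, with 10.1 ± 3.41 scaled TPM in Kelly, 18.5 ± 6.26 in BE(2)C, against 26.2 ± 9.22 in SH-SY5Y (SD, n = 3).

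CDK4 is a textbook target of the MYC family, whose proteins bind the word CACGTG. Its promoter is shown because it held more of these words than any other promoter searched for the members. RefSeq promoters (250 bases before to 50 after the start; GRCh38.p14) were on hand for 8 of the 10 members and were searched on both strands; CACGTG reads the same on each. CDK4 held 3, CDK6 held 1 in 1 of its promoters and CDKN2C held 1 in each of 2 promoters, while CCND3, CDKN2A, CDKN1B and E2F1 held 0. The only entry for RB1 starts inside the gene (chr13:48476200-48476449, plus strand) and held 0 as well; the start of RB1 given below was not searched. Among 35116 promoters of the same length, 7.26% held at least 1, 0.664% at least 2 and 0.0940% at least 3. The 250 bases before the CDK4 start are chr12:57752311-57752560 on the minus strand, with CACGTG in capitals.

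CDK4 promoter: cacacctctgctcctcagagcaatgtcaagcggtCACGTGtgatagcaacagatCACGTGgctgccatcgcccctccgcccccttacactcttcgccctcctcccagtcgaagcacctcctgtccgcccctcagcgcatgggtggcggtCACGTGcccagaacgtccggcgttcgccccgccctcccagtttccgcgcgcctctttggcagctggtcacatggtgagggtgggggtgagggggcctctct

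The words are a property of the sequence, and binding was not measured.

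The balance of the 2 kinases differed between the lines on a measure that no scaling between libraries can move. CDK6 made up 68.1%, 78.8% and 70.4% of the summed TPM of CDK4 and CDK6 in the Kelly libraries, 46.2%, 40.5% and 50.4% in the BE(2)C libraries and 16.7%, 30.3% and 29.05% in the SH-SY5Y libraries. The 3 lines did not overlap: CDK6 was the larger part in every Kelly library, close to even with CDK4 in BE(2)C and the smaller part in every SH-SY5Y library. CCND1 made up 42.5 ± 0.438% of the summed TPM of CCND1, CDK4 and CDK6 in Kelly, 77.4 ± 1.28% in BE(2)C, against 91.1 ± 1.52% in SH-SY5Y (SD, n = 3). The lines were again separate, with a difference of -48.5 percentage points for Kelly against SH-SY5Y. For 6 such shares in 3 comparisons, 17 of the 18 exact permutation tests (two-sided) gave p = 0.1, the smallest that 3 libraries against 3 allow, and 0.106 after adjustment over the 18. The share of CCND1 among the D cyclins in BE(2)C against SH-SY5Y gave p = 0.6 by the same exact test.

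**Figure D2:**
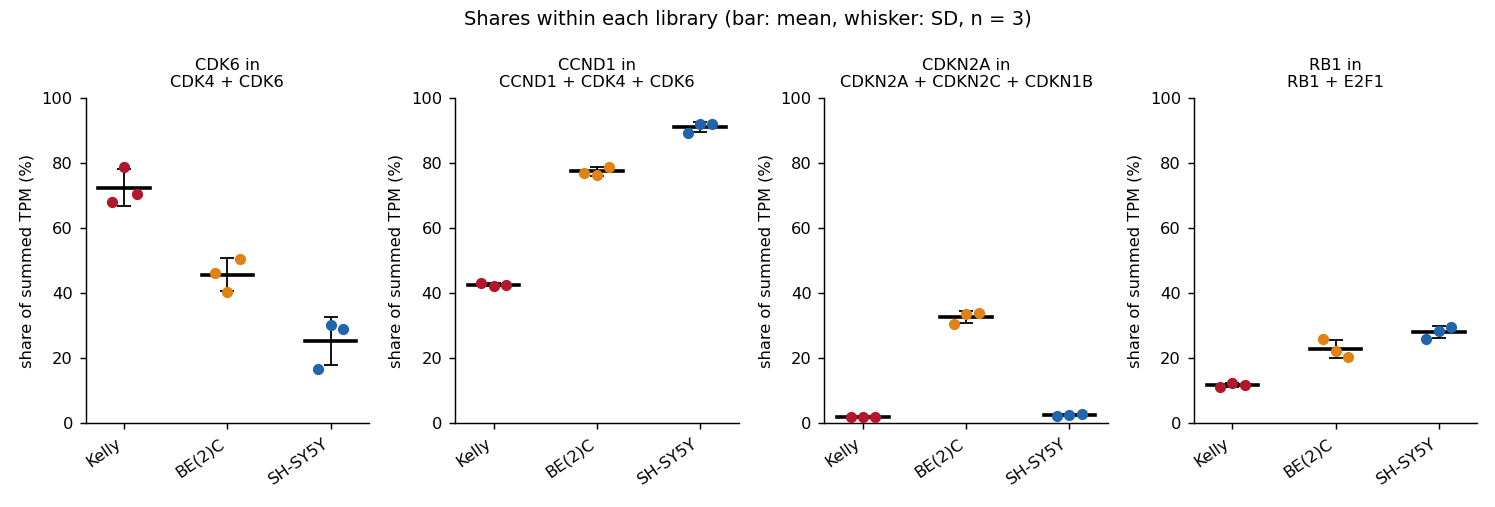
Shares of summed TPM within each library, in percent from 0 to 100, for CDK6 of both kinases, CCND1 of CCND1 plus both kinases, CDKN2A of the 3 inhibitors and RB1 of RB1 plus E2F1; points are libraries, bars the mean and whiskers the SD of 3 libraries. The CDK6 share averages 72.5% in Kelly, 45.7% in BE(2)C, against 25.4% in SH-SY5Y, and the CDKN2A share is 32.6% in BE(2)C but 1.82% in Kelly and 2.53% in SH-SY5Y.

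Among the inhibitors CDKN2A set BE(2)C apart. Its locus, at chr9:21967753-21995301 on the minus strand, makes both the INK4 inhibitor p16INK4a and, from another first exon and reading frame, p14ARF, which stabilises p53; the table holds 1 value for both, so they cannot be told apart. CDKN2A had 4.13, 4.99 and 4.78 scaled TPM in the Kelly libraries, 126, 115 and 109 in the BE(2)C libraries and 3.41, 3.60 and 4.01 in the SH-SY5Y libraries. Every BE(2)C library was more than 20 times above every library of the other lines. CDKN2A's exons overlap those of CDKN2B-AS1 on the other strand over 341 of 4329 bases, and no level was found for CDKN2B-AS1. CDKN2A rose by 4.66 ± 0.13 on the log2 scale in BE(2)C against SH-SY5Y (limma, adjusted p = 1.40e-08), a 25.2-fold difference on that scale, and differed by -4.39 ± 0.13 in Kelly against BE(2)C (adjusted p = 3.77e-08). Between Kelly and SH-SY5Y the difference was 0.27 ± 0.13 (95% interval -0.03 to 0.57; adjusted p = 0.111), although the libraries did not overlap; it passed with quantile normalization (0.40, adjusted p = 0.0297) and was -0.13 on values as deposited. CDKN2B, the INK4 gene beside CDKN2A, was chosen for mention after its values were seen. It was low throughout, under the level that the rule for other named genes asks for, with a mean of 0.0713 scaled TPM in Kelly, 2.10 in BE(2)C (range 1.47 to 2.80), against 0.0885 in SH-SY5Y. BE(2)C exceeded SH-SY5Y by 1.498 ± 0.20 on the log2 scale. Kelly differed from BE(2)C by -1.52 ± 0.20 for CDKN2B.

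CDKN2C, which encodes the INK4 inhibitor p18 at chr1:50960745-50974633 on the plus strand, was higher in both MYCN-amplified lines. It had 116, 138 and 122 scaled TPM in the Kelly libraries, 122, 87.7 and 84.4 in the BE(2)C libraries and 57.7, 56.7 and 55.7 in the SH-SY5Y libraries. SH-SY5Y was the lowest line without overlap, and Kelly and BE(2)C overlapped. The difference was 1.13 ± 0.13 for Kelly against SH-SY5Y (limma, adjusted p = 8.54e-05) and 0.76 ± 0.13 for BE(2)C against SH-SY5Y (adjusted p = 9.14e-04). On values as deposited the first was 0.40 (adjusted p = 0.0713) and the second 0.18 (adjusted p = 0.400), and with library totals only the second was 0.31 (adjusted p = 0.148). Kelly exceeded BE(2)C by 0.37 ± 0.13 (adjusted p = 0.0418), a call that was kept in 1 of 9 fits with a library left out, that without BE(2)C replicate 1; in the other 8 the adjusted p ran from 0.0501 to 0.133.

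CDKN1B encodes p27, the CIP/KIP inhibitor whose loss frees cyclin E kinase, and lies at chr12:12715058-12722371 on the plus strand. It had 109, 132 and 132 scaled TPM in the Kelly libraries, 167, 141 and 130.2 in the BE(2)C libraries and 84.1, 85.8 and 84.2 in the SH-SY5Y libraries. Every Kelly and BE(2)C library stood above every SH-SY5Y library. The difference was 0.54 ± 0.10 for Kelly against SH-SY5Y (limma, adjusted p = 0.0018), 0.77 ± 0.10 for BE(2)C against SH-SY5Y (adjusted p = 1.87e-04) and -0.23 ± 0.10 for Kelly against BE(2)C (95% interval -0.46 to 0.01; adjusted p = 0.0999). On values as deposited the first was -0.15 (adjusted p = 0.435) and the second 0.19 (adjusted p = 0.339), with library totals only the second was 0.31 (adjusted p = 0.0775), and without BE(2)C replicate 3 the difference between Kelly and BE(2)C passed (-0.30, adjusted p = 0.0435). Of the summed TPM of CDKN2A, CDKN2C and CDKN1B, CDKN2A took 1.82 ± 0.0225% in Kelly, 32.6 ± 1.85% in BE(2)C, against 2.53 ± 0.226% in SH-SY5Y (SD, n = 3).

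The other inhibitors and pocket proteins were counted beside these members, where 55.3% of all tested genes were called in Kelly against SH-SY5Y, 59.4% in BE(2)C against SH-SY5Y and 52.5% in Kelly against BE(2)C. Of 6 such genes, 1 was higher and 2 lower in Kelly than in SH-SY5Y, with a median of -0.18 against -0.00 for all tested genes; 2 were higher and 4 lower in BE(2)C than in SH-SY5Y, with a median of -0.60 against -0.04; and 1 was higher and 2 lower in Kelly than in BE(2)C, with a median of 0.03 against 0.02. CDKN1C, which encodes p57, averaged 0.787 scaled TPM in Kelly, 0.364 in BE(2)C, against 25.8 in SH-SY5Y, a change of -3.97 ± 0.26 for Kelly and -4.30 ± 0.26 for BE(2)C against SH-SY5Y. CDKN1A, which encodes the p53-induced inhibitor p21, averaged 80.4 in Kelly, 14.8 in BE(2)C, against 37.1 in SH-SY5Y. It rose by 1.06 ± 0.18 in Kelly and fell by -1.28 ± 0.18 in BE(2)C against SH-SY5Y, and Kelly exceeded BE(2)C by 2.34 ± 0.18. CDKN2D, which encodes the INK4 inhibitor p19, averaged 15.1 in Kelly, 15.4 in BE(2)C, against 27.5 in SH-SY5Y, lower by -0.82 ± 0.14 in Kelly and by -0.81 ± 0.14 in BE(2)C. RBL1, the pocket protein p107, averaged 16.7 in Kelly, 24.6 in BE(2)C, against 16.0 in SH-SY5Y; its rise in BE(2)C against SH-SY5Y of 0.60 ± 0.15 and its difference of -0.53 ± 0.15 in Kelly against BE(2)C were not called with library totals only.

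**Figure D3:**
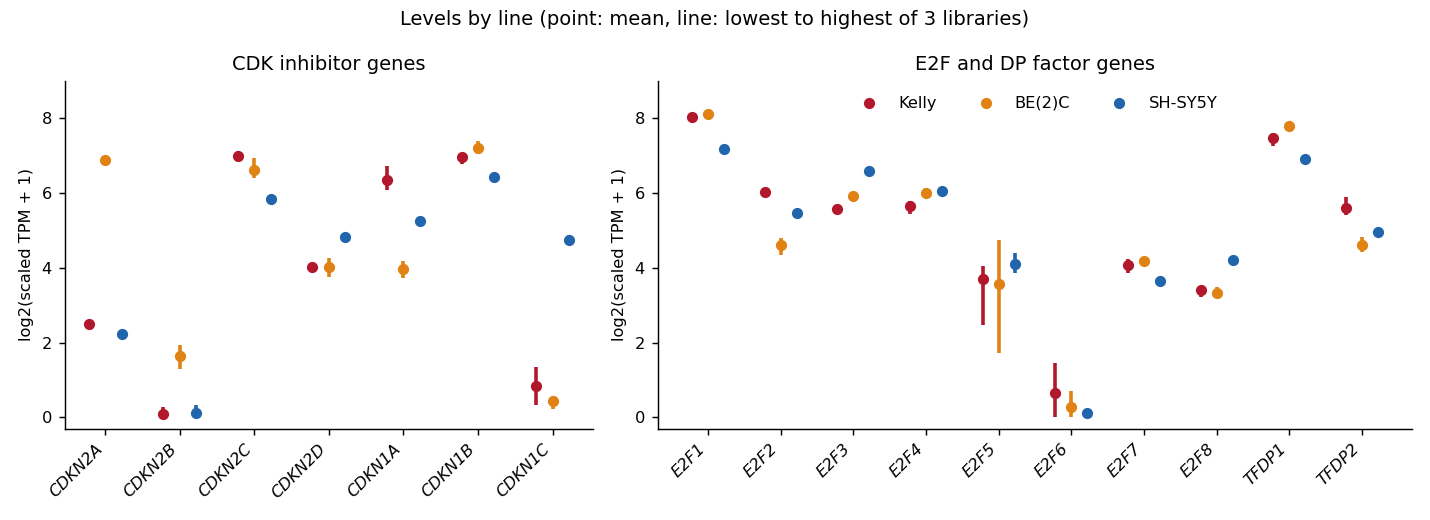
Levels of 7 CDK inhibitor genes and of 10 E2F and DP factor genes, as log2(scaled TPM + 1); points are line means and lines run from the lowest to the highest of 3 libraries, with Kelly left of BE(2)C and SH-SY5Y. CDKN2A stands out in BE(2)C at a mean of 117 scaled TPM, and CDKN1C in SH-SY5Y at 25.8.

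RB1, the retinoblastoma protein gene at chr13:48303726-48599436 on the plus strand, was lowest in Kelly and highest in BE(2)C. It had 33.0, 36.6 and 35.5 scaled TPM in the Kelly libraries, 88.9, 81.4 and 74.9 in the BE(2)C libraries and 51.2, 59.3 and 57.2 in the SH-SY5Y libraries. The lines did not overlap. The difference was -0.66 ± 0.09 for Kelly against SH-SY5Y (limma, adjusted p = 2.71e-04), 0.54 ± 0.09 for BE(2)C against SH-SY5Y (adjusted p = 8.00e-04) and -1.20 ± 0.09 for Kelly against BE(2)C (adjusted p = 7.10e-06). The rise in BE(2)C did not hold under every scaling: it was 0.09 (adjusted p = 0.581) with library totals only and -0.024 (adjusted p = 0.896) on values as deposited. Within libraries, RB1 made up 40.0 ± 1.22% of the summed TPM of the pocket protein genes RB1, RBL1 and RBL2 in Kelly, 58.2 ± 1.75% in BE(2)C, against 47.7 ± 0.908% in SH-SY5Y (SD, n = 3), with no overlap between lines.

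E2F1, an activating E2F factor that is itself an E2F target, lies at chr20:33675683-33686404 on the minus strand and was higher in both MYCN-amplified lines. It had 259, 258 and 263 scaled TPM in the Kelly libraries, 256, 283 and 291 in the BE(2)C libraries and 146, 149.5 and 135 in the SH-SY5Y libraries. Kelly and BE(2)C overlapped and SH-SY5Y was lower throughout. The difference was 0.85 ± 0.07 for Kelly against SH-SY5Y (limma, adjusted p = 5.49e-06), a 1.80-fold difference, and 0.94 ± 0.07 for BE(2)C against SH-SY5Y (adjusted p = 2.60e-06), a 1.92-fold difference; on values as deposited the first was 0.14 (adjusted p = 0.2998). Kelly differed from BE(2)C by -0.09 ± 0.07 (95% interval -0.24 to 0.06; adjusted p = 0.297), which turned to 0.24 with library totals only (adjusted p = 0.0316) and to 0.054 with quantile normalization. RB1 made up 11.9 ± 0.579% of the summed TPM of RB1 and E2F1 in Kelly, 22.9 ± 2.71% in BE(2)C, against 28.01 ± 1.93% in SH-SY5Y (SD, n = 3), so the share was lowest in Kelly and the 3 lines were separate.

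The E2F1 promoter is shown because E2F1 is known to feed back on its own gene through E2F words near its start. The words TTTCCCGC, TTTCGCGC, TTTGCCGC and TTTGGCGC were searched on both strands. The E2F1 promoter held 2, and the promoters searched for the other 7 members held 0, the internal start of RB1 standing for that gene. Among 35116 promoters, 3.31% held at least 1 and 0.145% at least 2. The 250 bases before the start are chr20:33686386-33686635 on the minus strand, with the matches in capitals; the first is the reverse complement of TTTGCCGC.

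E2F1 promoter: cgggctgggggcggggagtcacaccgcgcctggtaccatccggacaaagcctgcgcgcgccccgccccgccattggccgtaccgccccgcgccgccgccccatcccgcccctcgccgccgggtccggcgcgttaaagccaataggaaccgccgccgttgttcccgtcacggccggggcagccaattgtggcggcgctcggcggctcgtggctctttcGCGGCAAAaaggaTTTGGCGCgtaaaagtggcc

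Counted over the 9 tested members, 4 were higher and 2 lower in Kelly than in SH-SY5Y, where 55.3% of all tested genes were called, 28.1% as higher and 27.2% as lower. In BE(2)C against SH-SY5Y, 7 were higher and 1 lower, where 59.4% of all tested genes were called, 28.6% as higher and 30.7% as lower. In Kelly against BE(2)C, 2 were higher and 4 lower, where 52.5% of all tested genes were called, 27.9% as higher and 24.6% as lower. Against a background this high, 6 called members of 9 in the first and last comparisons are near the share of all genes. The members' median log2 difference was 0.27, 0.77 and -0.23 in these comparisons, beside -0.00, -0.04 and 0.02 for all tested genes. In BE(2)C against SH-SY5Y the count rests on the scaling, since 3 members were higher and 1 lower both with library totals only and on values as deposited. On values as deposited Kelly against SH-SY5Y also changed its balance, to 1 higher and 3 lower, and Kelly against BE(2)C had 3 higher and 3 lower with library totals only. With library totals only the median of all tested genes stood at -0.13 in Kelly against SH-SY5Y, at -0.44 in BE(2)C against SH-SY5Y and at 0.31 in Kelly against BE(2)C. Mitochondrial genes took 16.5% to 19.8% of the gene total in Kelly, 24.5% to 35.3% in BE(2)C and 17.2% to 18.0% in SH-SY5Y, and their part in the counts was not tested beyond the fit without them. That fit put the median of all tested genes at -0.23 in BE(2)C against SH-SY5Y and gave 7 members higher and 1 lower. The first 2 comparisons share the SH-SY5Y libraries, so their counts are not independent. Of the Kelly changes, CCND1 and CDK6 against SH-SY5Y and CCND1 and CDKN2A against BE(2)C were larger than the largest spike-in shift of their comparison; the part of the spike-in difference in the smaller ones was not tested.

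**Figure D4:**
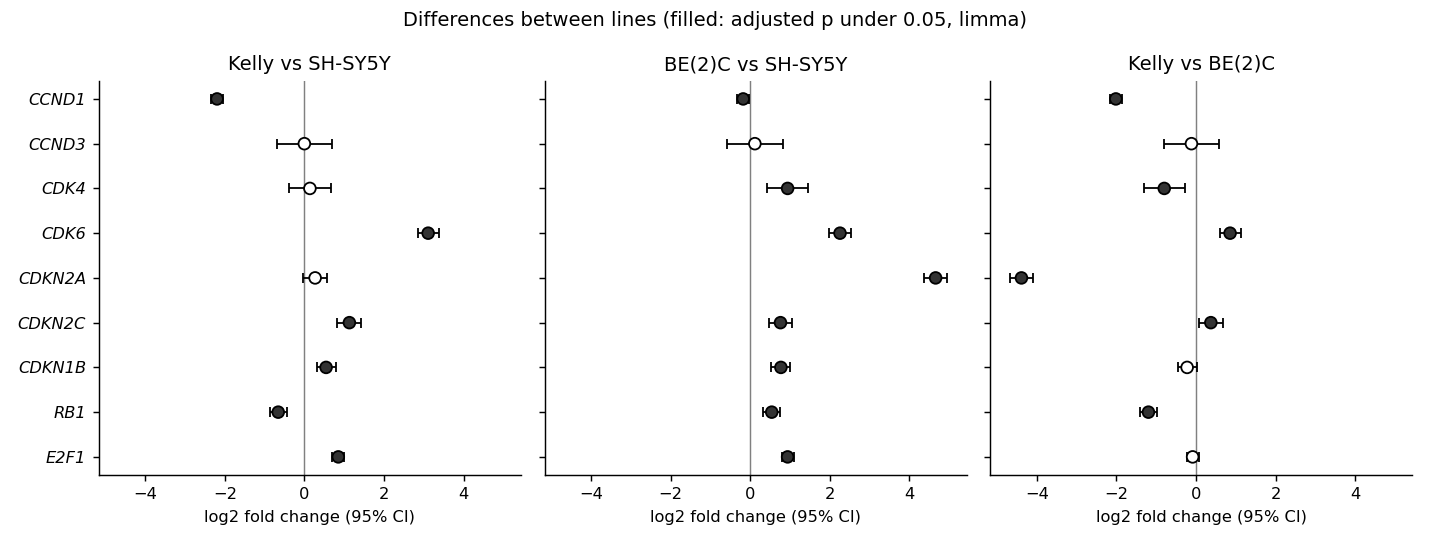
Log2 fold changes of the 9 tested members in the 3 comparisons, the first line over the second, with 95% intervals; filled points had an adjusted p under 0.05 (limma). CDK6 is at 3.11 and 2.26 against SH-SY5Y, CCND1 is at -2.19 and -2.02 in the comparisons with Kelly first, and CDKN2A is at 4.66 and -4.39 in those with BE(2)C.

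The counts of the gene lists that follow stand beside the same 55.3%, 59.4% and 52.5% of all tested genes called. The other E2F and DP factors split both ways. DP factors pair with E2F factors to bind DNA. Of 8 tested genes of a list of 9, 4 were higher and 3 lower in Kelly than in SH-SY5Y with a median of 0.00, 2 were higher and 3 lower in BE(2)C than in SH-SY5Y with a median of -0.52, and 2 were higher and 3 lower in Kelly than in BE(2)C with a median of -0.04. With library totals only the last count was 2 higher and 0 lower. The activator E2F3 was lower where E2F1 was higher: it averaged 46.3 scaled TPM in Kelly, 59.2 in BE(2)C, against 96.0 in SH-SY5Y, a change of -1.04 ± 0.07 for Kelly and -0.69 ± 0.07 for BE(2)C against SH-SY5Y. E2F2, also an activator, averaged 64.0 in Kelly, 23.7 in BE(2)C, against 43.2 in SH-SY5Y. Its difference was 0.56 ± 0.12 for Kelly and -0.85 ± 0.12 for BE(2)C against SH-SY5Y, the first turning to -0.13 on values as deposited. E2F8, a repressor, was lower by -0.82 ± 0.15 in Kelly and by -0.88 ± 0.15 in BE(2)C. E2F7, of the same kind, went the other way, called higher by 0.40 ± 0.13 in Kelly and by 0.54 ± 0.13 in BE(2)C. It averaged 15.7 in Kelly, 17.3 in BE(2)C, against 11.6 in SH-SY5Y. TFDP1, the main DP partner, averaged 220.6 in BE(2)C, against 119 in SH-SY5Y, a difference of 0.88 ± 0.09 that was not called on values as deposited. For Kelly against SH-SY5Y it was 0.55 ± 0.09, turning to -0.15 on values as deposited. TFDP2 averaged 47.7 in Kelly, 23.4 in BE(2)C, against 30.04 in SH-SY5Y.

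Downstream of E2F, genes of DNA replication had more called higher than lower in each comparison, but the balance moved with the scaling. Of 27 E2F-regulated S-phase genes, 16 were higher and 7 lower in Kelly than in SH-SY5Y with a median of 0.31, 14 were higher and 7 lower in BE(2)C than in SH-SY5Y with a median of 0.28, and 11 were higher and 7 lower in Kelly than in BE(2)C with a median of 0.16. With library totals only the counts of higher and lower genes were 11 and 7 for Kelly against SH-SY5Y, 1 and 11 for BE(2)C against SH-SY5Y and 17 and 4 for Kelly against BE(2)C. On values as deposited they were 2 and 14, 0 and 13, and 7 and 7 in the same order. Quantile normalization gave 13 and 7, 7 and 8, and 12 and 7, and leaving mitochondrial genes out of the total gave 14 and 7, 8 and 8, and 12 and 6. More genes were thus called higher than lower in Kelly against SH-SY5Y under each of these except values as deposited, and in BE(2)C against SH-SY5Y under none of them. The helicase subunit genes themselves moved apart: MCM5 averaged 542 scaled TPM in Kelly, 330.3 in BE(2)C, against 205 in SH-SY5Y, higher by 1.40 ± 0.06 in Kelly and by 0.69 ± 0.06 in BE(2)C, the second not called on values as deposited. MCM2 was higher than in SH-SY5Y by 1.32 ± 0.07 in Kelly and by 0.45 ± 0.07 in BE(2)C, the second turning to -0.12 on values as deposited and to -0.0097 with library totals only. MCM7 was lower than in SH-SY5Y by -1.19 ± 0.09 in Kelly and by -0.46 ± 0.09 in BE(2)C, and MCM6 by -0.87 ± 0.06 in Kelly and by -0.64 ± 0.06 in BE(2)C. CHEK1, the replication checkpoint kinase gene, averaged 9.73 in Kelly, 22.8 in BE(2)C, against 22.3 in SH-SY5Y, a difference of -1.13 ± 0.19 for Kelly against SH-SY5Y and of -1.15 ± 0.19 for Kelly against BE(2)C. Between Kelly and BE(2)C, TYMS, the thymidylate synthase gene, was higher in Kelly (504 against 267; 0.92 ± 0.10), as was the origin subunit gene ORC1 (39.6 against 20.1; 0.95 ± 0.09), and the histone message binder SLBP was lower (67.1 against 126; -0.90 ± 0.08).

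**Figure D5:**
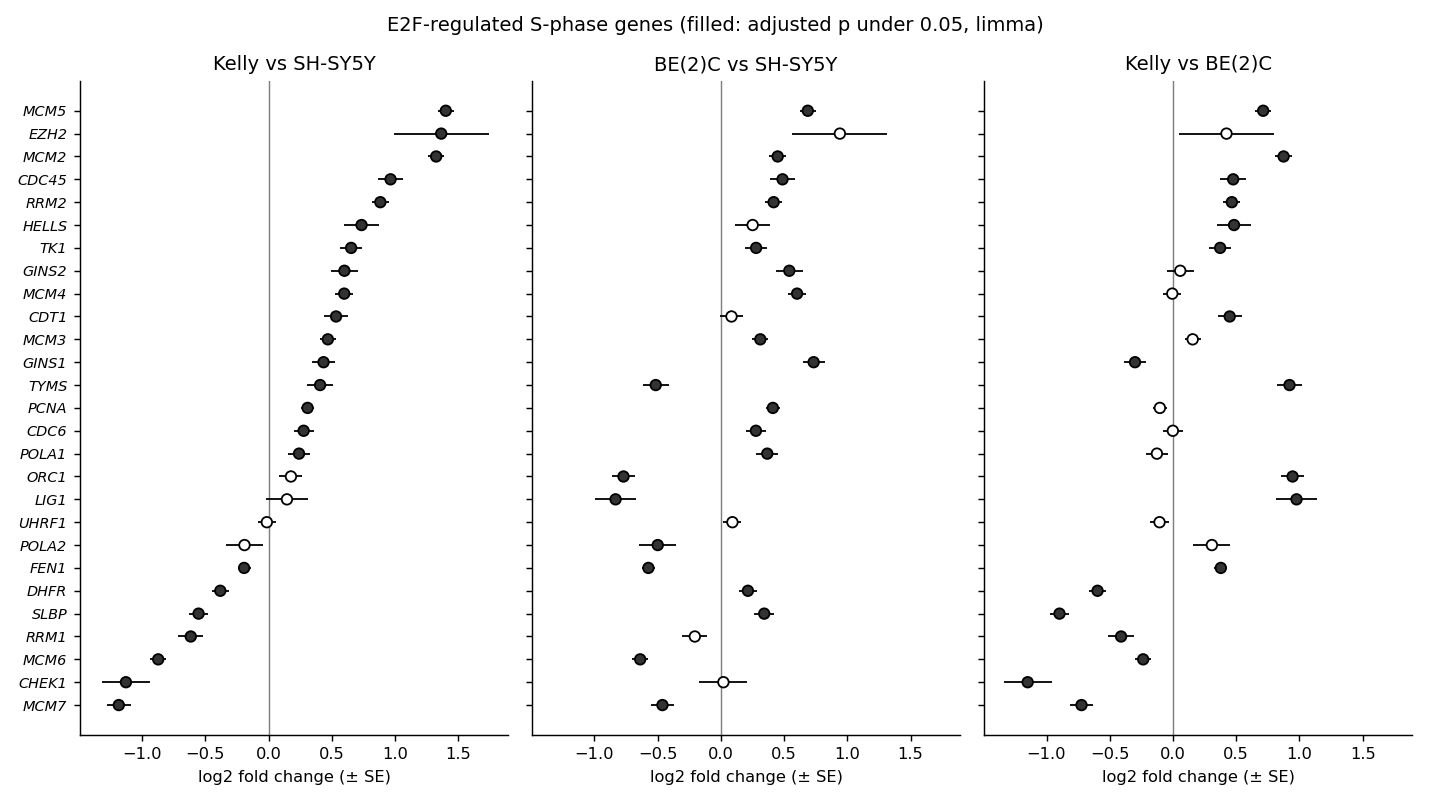
Log2 fold changes (± SE) of 27 E2F-regulated S-phase genes in the 3 comparisons, the first line over the second, in the order of Kelly vs SH-SY5Y; filled points had an adjusted p under 0.05 (limma). MCM5 is at 1.40 and MCM7 at -1.19 in Kelly against SH-SY5Y, and the median of that comparison is 0.31.

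Among 14 tested cyclins and kinases that act with or after cyclin D, 7 were higher and 1 lower in Kelly than in SH-SY5Y, with a median of 0.24. In BE(2)C against SH-SY5Y 8 were higher and 4 lower, with a median of 0.55, and in Kelly against BE(2)C 3 were higher and 7 lower, with a median of -0.26. On values as deposited 0 were higher and 5 lower in Kelly than in SH-SY5Y, and in Kelly against BE(2)C library totals only gave 4 higher and 3 lower. CCNE1, which encodes the cyclin E1 that completes RB1 phosphorylation, averaged 30.2 scaled TPM in Kelly, 14.0 in BE(2)C, against 34.6 in SH-SY5Y. It was lower in BE(2)C than in SH-SY5Y by -1.25 ± 0.17 and higher in Kelly than in BE(2)C by 1.05 ± 0.17. The cyclin E2 gene CCNE2 went the other way, with means of 15.4 in Kelly, 25.5 in BE(2)C, against 14.6 in SH-SY5Y. Its difference was 0.79 ± 0.17 for BE(2)C against SH-SY5Y and -0.70 ± 0.17 for Kelly against BE(2)C, both called. CCNA2, the S-phase cyclin A2 gene, averaged 145 in Kelly, 205 in BE(2)C, against 89.5 in SH-SY5Y, a difference of 0.69 ± 0.10 for Kelly and 1.18 ± 0.10 for BE(2)C; the first was -0.014 on values as deposited. MNAT1, which assembles the kinase that activates CDK4 and other CDKs, was higher by 0.67 ± 0.17 in Kelly and by 1.48 ± 0.17 in BE(2)C, the first being -0.017 on values as deposited. The gene of that kinase, CDK7, is on the list but was under the filter on low values and not tested. It averaged 0.485 scaled TPM in Kelly, 0.525 in BE(2)C, against 0.378 in SH-SY5Y. WEE1, an inhibitory kinase, was lower by -1.09 ± 0.12 in Kelly and by -1.05 ± 0.12 in BE(2)C against SH-SY5Y.

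Of 10 genes that turn over D cyclins and p27, 3 were higher and 0 lower in Kelly than in SH-SY5Y (by limma; 7 did not pass), 1 was higher and 2 lower in BE(2)C than in SH-SY5Y, and 3 were higher and 2 lower in Kelly than in BE(2)C. The medians were 0.11, 0.01 and 0.08. With library totals only the counts of higher and lower genes were 2 and 1, 1 and 6, and 5 and 0 in the same order. SKP2, the ubiquitin ligase subunit that marks p27 for destruction, stood out in both amplified lines, with 127 scaled TPM in Kelly, 186 in BE(2)C, against 50.8 in SH-SY5Y. It was higher by 1.30 ± 0.09 in Kelly and by 1.85 ± 0.09 in BE(2)C than in SH-SY5Y, while the message of its substrate, CDKN1B, was higher in these lines as well. AMBRA1, the adaptor that sends D cyclins to degradation, averaged 23.2 in Kelly, 12.5 in BE(2)C, against 21.1 in SH-SY5Y, lower in BE(2)C by -0.70 ± 0.11 against SH-SY5Y and higher in Kelly by 0.84 ± 0.11 against BE(2)C. CUL1, the scaffold of the SKP2 ligase, was higher in Kelly by 0.44 ± 0.06 against SH-SY5Y and by 0.57 ± 0.06 against BE(2)C, the first turning to -0.26 on values as deposited.

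Of 7 tested genes of the DREAM and MuvB complexes, which hold cell cycle genes silent in resting cells or drive them later in the cycle, 2 were higher and 3 lower in Kelly than in SH-SY5Y, 1 was higher and 3 lower in BE(2)C than in SH-SY5Y, and 3 were higher and 1 lower in Kelly than in BE(2)C. The medians were 0.01, 0.08 and 0.29. MYBL1, a MYB gene related to MYBL2, differed most from SH-SY5Y: it averaged 5.23 scaled TPM in Kelly, 3.13 in BE(2)C, against 14.6 in SH-SY5Y, lower by -1.33 ± 0.28 in Kelly and by -1.97 ± 0.28 in BE(2)C. MYBL2, the activating MYB partner, averaged 446 scaled TPM in Kelly, 364 in BE(2)C, against 282 in SH-SY5Y. It was higher by 0.66 ± 0.07 in Kelly and by 0.37 ± 0.07 in BE(2)C, but the differences were -0.056 and -0.20 on values as deposited, and -0.094 in BE(2)C with library totals only. FOXM1, which drives mitotic genes, averaged 191 in Kelly, 118 in BE(2)C, against 109 in SH-SY5Y, a difference of 0.80 ± 0.10 for Kelly against SH-SY5Y, not called on values as deposited, and 0.69 ± 0.10 for Kelly against BE(2)C. The histone binder RBBP4 averaged 67.3 in Kelly, 38.9 in BE(2)C, against 91.6 in SH-SY5Y, lower than in SH-SY5Y by -0.44 ± 0.11 in Kelly and by -1.22 ± 0.11 in BE(2)C.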

How the data were processed

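Polyadenylated RNA of 9 libraries, 3 for each of 3 lines, was measured. The deposited table holds log10 values, which from their sums are log10(TPM + 1); back-transformed, the authors' TPM values sum to 966592 to 980009 in each library. Per the submitters' processing notes HISAT 0.1.6, Salmon 0.3.2 and GRCh38 were used, with no role given, and no source used here states the step from transcripts to genes. TPM keep no depth, so the depth is unknown and no counting interval is given.

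ERCC spike-ins (92 entries, 83.7% to 90.6% of the total), 11 markers and 28 entries that carry a date were set apart from 19706 genes. Gene values were rescaled to their own total, with the dated entries kept in it, and divided by an unweighted trimmed-mean factor (0.758 to 1.17; trims of 30% for log ratios and 5% for log levels). The 13076 genes that reached 1 in 3 or more libraries were fitted with limma 3.58.1 (R 4.3.3; trend, all 9 libraries, no block) on log2(scaled TPM + 1), two-sided, with Benjamini-Hochberg adjusted p under 0.05 as called. The fit was tested on simulated data. Shares were compared with exact permutation tests, adjusted over 18 tests, in Python 3.11.15.

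The members and lists were chosen with earlier results of these data known. Named beyond the members are up to 4 called genes per list and comparison with the largest change and at least 10 scaled TPM in the higher line, of which those that matter are given, and the 3 genes closest in pattern to each D cyclin. CCNE2, E2F7 and CDK7 were named outside this rule, after their values were seen. Alternatives were library totals only, mitochondrial genes out of the total, values as deposited, quantile normalization, a pseudocount of 0.1, no filter or a filter of 5, the replicate block and each library left out; a fit on only the 2 lines compared was added after seeing the data. Positions are from GENCODE release 29, promoters and microRNAs from RefSeq.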

Additional observations from a re-analysis of the deposited data

How the results depend on the processing

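The counts of called genes (7230 for Kelly against SH-SY5Y, 7764 for BE(2)C against SH-SY5Y and 6861 for Kelly against BE(2)C) and of called members (6, 8 and 6) stayed within 1.5 times under the alternatives run, except the members in BE(2)C against SH-SY5Y, at 4 with library totals only and 4 on values as deposited. With a library left out the members called were 6 to 6, 7 to 8 and 4 to 6 in the same order. Of the calls, the share in the higher direction was 50.8%, 48.2% and 53.2%; with library totals only it was 41.5%, 23.6% and 74.3%, on values as deposited 12.1%, 18.2% and 40.1%, and without mitochondrial genes in the total 41.8%, 36.3% and 58.1%. Replicate numbers did not pair the libraries (same-number correlations of deviations -0.0545 to 0.0266 over 9 pairs, other pairs -0.0383 to 0.0407 over 18); with the replicate block 6980, 7544 and 6634 genes and 6, 7 and 5 members were called, CCND1 in BE(2)C against SH-SY5Y (adjusted p = 0.0677) and CDKN2C in Kelly against BE(2)C (adjusted p = 0.0577) being lost. The cause of these changes was not tested.

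Directions turned for small differences under several alternatives. Called differences, such as 0.69 for CCNA2 and 0.66 for MYBL2 in Kelly against SH-SY5Y, turned as well on values as deposited or with library totals only. As deposited, the median of all tested genes stood at -0.55 in Kelly against SH-SY5Y and at -0.44 in BE(2)C against SH-SY5Y. For CCND3, Kelly against SH-SY5Y gave 0.14 with quantile normalization and -0.22 to 0.18 with a library left out. BE(2)C against SH-SY5Y gave -0.29 with library totals only, -0.074 without mitochondrial genes, -0.21 as deposited and -0.19 to 0.33 with a library left out. Kelly against BE(2)C gave 0.16 with library totals only and -0.33 to 0.19 with a library left out. CDK4 in Kelly against SH-SY5Y was -0.53 as deposited and -0.027 to 0.35 with a library left out. As deposited, Kelly against SH-SY5Y gave -0.13 for CDKN2A, -0.15 for CDKN1B, -0.15 for TFDP1, -0.049 for TFDP2, -0.13 for E2F2, -0.014 for CCNA2, -0.017 for MNAT1, -0.26 for CUL1, -0.35 for GSK3B and -0.056 for MYBL2, and BE(2)C against SH-SY5Y gave -0.024 for RB1, -0.12 for MCM2 and -0.20 for MYBL2; with library totals only MCM2 was -0.0097 and MYBL2 -0.094. For Kelly against BE(2)C, library totals only gave 0.10 for CDKN1B and 0.24 for E2F1, and quantile normalization 0.054 for E2F1. Over 27 member results, 431 values under an alternative kept direction and side of the threshold, 32 lost the call, 2 gained it and 21 turned. The depth of the libraries is unknown, so its limit on low genes could not be measured.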
